A study of Homo sapiens with 8 samples.

Results

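MYC was knocked down with siRNA in A549 cells, an established line of human lung adenocarcinoma, and the poly(A)-selected transcriptome was sequenced. The comparison sets the 2 libraries whose treatment label is siMYC (replicates A and B) against the 2 libraries labelled siNC, a negative control siRNA (replicates A and B), which makes 4 of the 8 libraries of the series. The other 4 libraries come from A549 cells with an empty vector or with a vector that overexpresses MGA, a MAX partner, and are used only for a comparison near the end. All cells are 1 line without a named genetic change other than the treatment. The number of siRNAs, their sequences, dose and time after transfection are not stated in the labels.

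MYC is a transcription factor of the basic helix-loop-helix leucine zipper class. It binds DNA as a dimer with MAX, best at the palindrome CACGTG, which is called the canonical E-box. MXD proteins, MNT and MGA also pair with MAX and bind the same palindrome, and are known mostly as repressors. MYC is best known for raising the expression of genes for ribosome production, nucleotide synthesis and cell cycle entry, and in lung adenocarcinoma it is a known oncogene.

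Total expected counts per library, the reads that were assigned to genes, were 1398805 and 1741730 with siNC and 2129006 and 1598792 with siMYC, so genes of low expression are measured with few reads. Values below are normalised read counts (CPM, counts scaled to library size by TMM) or, where genes are compared with each other, the deposited TPM, which is corrected for length. The A549 and epithelial markers KRT8, ALDH1A1 and AKR1B10 had at least 4087 counts in every library and EPCAM 8 to 17, while the lung markers SFTPB and NKX2-1 had 0 counts in all 4 and NAPSA had at most 2. PTPRC, CD3E, CDH5, VWF and KDR, markers of blood and endothelial cells, had 0 counts in all 4 libraries. Whether replicates A and B are separate cultures is not stated, so every p-value refers to the scatter of these 4 samples, and that scatter may be technical only.

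With siMYC, 2132 of 11045 tested genes fell (19.3%) and 2003 rose (18.1%) at an adjusted p under 0.05 in edgeR's quasi-likelihood test, 37.4% in all. Of these, 584 fell 2-fold or more (5.29%) and 599 rose 2-fold or more (5.42%). The median log2 fold change over all tested genes was 0.01, and 5% of genes lay below -1.03 and 5% above 1.08. The groups did not overlap in 68.5% of genes, and in what follows no overlap means that both siMYC values lay on 1 side of both siNC values. Replicates differed by a median of 0.20 (siNC) and 0.18 (siMYC) on the log2 scale, against a median difference of 0.40 between the groups. The number of calls rests on all 4 libraries: it was 2323 without siNC replicate A and 1917 without siNC replicate B. On log2(TPM + 1) values limma called 1846 genes, of which 1114 rose (60.3%, against 48.4% of the edgeR calls), and the median of all genes moved to 0.15. The median of a gene group changed sign between these scales for 6 of 78 groups. Gene groups and their members were chosen with earlier results of these data known, so the shares below are descriptions and not tests.

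Because CACGTG is the textbook site of MYC with MAX, promoters were searched for it (6 letters that read the same on both strands, from 250 bases before to 50 after the first start that RefSeq lists for a gene, GRCh38.p14). It was present in 13.6% of 1733 promoters of genes that fell, in 8.52% of 1573 promoters of genes that rose and in 10.3% of 5592 promoters of genes without a call, against 10.6% of the 8898 tested genes with a promoter in the table and 7.43% of 27305 RefSeq promoters. Among genes that fell 2-fold or more the share was 17.3%, and among those that rose 2-fold or more 9.09%. Palindromes of the same base composition served as controls. CTCGAG was in 5.83% of promoters of falling, 5.47% of rising and 5.69% of uncalled genes, GTCGAC in 2.65%, 1.84% and 2.15%, and ACCGGT in 3.0%, 2.1% and 2.29%. At 2-fold or more, the falling and rising shares of the controls were 7.11% and 4.32%, 1.33% and 1.14%, and 3.78% and 1.59%, so that the ratio of falling to rising was larger for ACCGGT, which rests on 17 and 7 promoters, than for CACGTG with 78 and 40. By this ratio CACGTG did not stand apart from ACCGGT. Median GC content was 64.7% in falling and 68.3% in rising promoters, and its part in these shares was not tested. The files use hg19, so the coordinates belong to the RefSeq table alone.

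**Figure D1:**
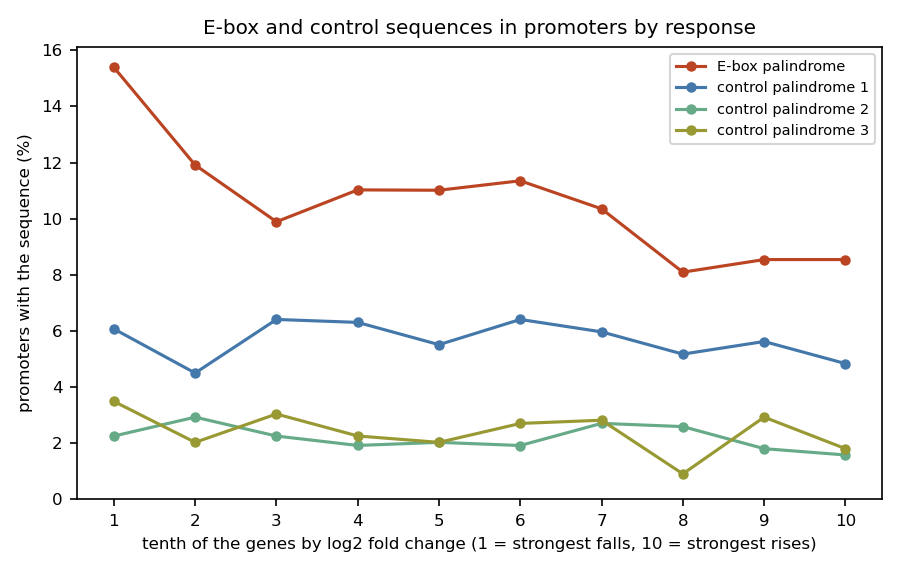
Share of promoters (y axis, percent) that hold the E-box palindrome CACGTG or the control palindromes CTCGAG (1), GTCGAC (2) and ACCGGT (3), in 10 equal groups of the 8898 matched genes ordered by log2 fold change (x axis). The E-box line falls from 15.4% in the first group to 8.54% in the last. The control lines also end lower than they start, at 6.07% and 4.83% (CTCGAG), 2.25% and 1.57% (GTCGAC) and 3.48% and 1.80% (ACCGGT). They are irregular in between, within 4.49 to 6.40%, 1.57 to 2.92% and 0.90 to 3.48%.

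The shares by gene group differed. The palindrome stood in the promoters of 17 of 41 genes of the small subunit processome, 14 of 44 large subunit assembly genes and 8 of 20 hnRNP genes. It stood in 2 of 41 promoters of large-subunit ribosomal proteins. Of 38 tested lysosomal genes, which more often rose, only 26 had a promoter in the table, under 80%. The palindrome stood in 8 of these 26, and the genes without an entry may differ. A match is a description of these letters, not of binding, and it does not go with 1 direction, as the examples show. They were chosen after their values were seen, for a palindrome upstream of the start. CD3EAP (a subunit of RNA polymerase I), EXOSC5 (RNA exosome), CIRH1A (small subunit processome), DDX31 (a nucleolar helicase), PPAT (first enzyme of purine synthesis), SRM (spermidine synthase) and HSPD1 (mitochondrial chaperonin) fell with siMYC. NEU1 (lysosomal sialidase), CTSD (cathepsin D), GAA (lysosomal glucosidase) and MXD4 rose. Their positions are CD3EAP chr19:45406574-45406643 (+ strand), EXOSC5 chr19:41397411-41397480 (- strand), CIRH1A chr16:69132579-69132648 (+ strand), DDX31 chr9:132669984-132670053 (- strand), PPAT chr4:56435760-56435829 (- strand), SRM chr1:11060180-11060249 (- strand), HSPD1 chr2:197500325-197500394 (- strand), NEU1 chr6:31862910-31862979 (- strand), CTSD chr11:1763937-1764006 (- strand), GAA chr17:80101511-80101580 (+ strand) and MXD4 chr4:2262290-2262359 (- strand). Each stretch of promoter is written 5′ to 3′ on the gene's strand, from RefSeq (GRCh38.p14), with the palindrome in capitals. GAA has a further CACGTG upstream that is not shown.
CD3EAP: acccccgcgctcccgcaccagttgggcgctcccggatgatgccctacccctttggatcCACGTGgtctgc
EXOSC5: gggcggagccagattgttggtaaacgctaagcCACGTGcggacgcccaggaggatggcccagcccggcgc
CIRH1A: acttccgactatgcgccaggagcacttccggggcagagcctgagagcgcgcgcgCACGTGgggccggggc
DDX31: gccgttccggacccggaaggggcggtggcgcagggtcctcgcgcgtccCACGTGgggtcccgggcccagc
PPAT: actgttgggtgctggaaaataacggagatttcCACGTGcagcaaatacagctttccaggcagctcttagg
SRM: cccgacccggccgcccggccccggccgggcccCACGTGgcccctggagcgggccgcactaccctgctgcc
HSPD1: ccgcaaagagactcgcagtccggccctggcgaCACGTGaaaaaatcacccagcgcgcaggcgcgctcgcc
NEU1: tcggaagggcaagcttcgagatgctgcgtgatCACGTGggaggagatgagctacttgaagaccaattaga
CTSD: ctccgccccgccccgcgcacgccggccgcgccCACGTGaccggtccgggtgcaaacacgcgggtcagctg
GAA: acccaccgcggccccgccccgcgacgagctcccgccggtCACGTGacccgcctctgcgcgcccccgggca
MXD4: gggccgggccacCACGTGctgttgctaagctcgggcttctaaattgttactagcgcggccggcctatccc

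Among these genes CD3EAP stood at 85.7 and 93.7 CPM with siNC and at 21.0 and 24.3 CPM with siMYC, PPAT at 75.6 and 64.1 CPM with siNC and at 21.5 and 28.6 CPM with siMYC and SRM at 95.2 and 113 CPM with siNC and at 35.9 and 39.2 CPM with siMYC. CTSD stood at 224 and 299 CPM with siNC and at 465 and 520.1 CPM with siMYC, and NEU1 at 26.2 and 10.7 CPM with siNC and at 45.2 and 43.5 CPM with siMYC. The control and knockdown libraries did not overlap for any of these 5 genes, as for 68.5% of all tested genes. The log2 fold changes were -2.0 for CD3EAP, -1.49 for PPAT, -1.48 for SRM, 0.91 for CTSD and 1.32 for NEU1, the last of which missed the threshold without siNC replicate B, at 0.75.

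MYC itself fell from 223 and 186 CPM with siNC to 49.0 and 41.7 CPM with siMYC (log2 fold change -2.15, SE 0.15, adjusted p = 2.3e-08), so the targeted gene matched the labels in all 4 libraries. Of 26 tested genes of the MYC-MAX network and its regulators 12 fell (46.2%) and 4 rose (15.4%), against 19.3% and 18.1% of all genes. Their median log2 fold change was -0.42. TFAP4, a helix-loop-helix factor that MYC is known to activate, fell from 24.0 and 33.8 CPM with siNC to 7.93 and 6.22 CPM with siMYC (log2 fold change -2.01, SE 0.31, adjusted p = 7.0e-05). Among members that act with MYC on chromatin, RUVBL1 fell from 105 and 143 CPM with siNC to 50.8 and 40.4 CPM with siMYC (-1.44), and RUVBL2 (-0.85) and the actin-like subunit ACTL6A (-1.24) fell too. KIAA1524, which encodes a protein that protects MYC from dephosphorylation, fell by 1.09 on the log2 scale, the ubiquitin ligase subunit SKP2 by 0.93 and the kinase AURKA, which can stabilise MYC proteins, by 0.72. The threshold was missed by KIAA1524 and SKP2 on log2(TPM + 1) with limma, and AURKA without siNC replicate B and on log2(TPM + 1) with limma.

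On the other side of the network, MXD4, a repressive MAX partner, rose from 26.9 and 26.1 CPM with siNC to 90.0 and 76.5 CPM with siMYC (log2 fold change 1.66, SE 0.18, adjusted p = 2.9e-06), and the groups were far apart. MLXIP (MondoA), a glucose-sensing factor that pairs with MLX, rose from 139 and 117 CPM with siNC to 223 and 195 CPM with siMYC (0.72). PIM1, a kinase gene among the regulators and not a repressive MAX partner, rose too, by 1.09. MNT, a broadly expressed repressor, rose by 0.50 at an adjusted p of 0.049. MXD1 (log2 fold change 0.47), MXD3 (0.75) and MXI1 (-0.86) did not pass the test. The groups did not overlap for any of them, which was also so for 68.5% of all tested genes. MAX overlapped between the groups, at 43.6 and 36.2 CPM with siNC and 32.2 and 37.9 CPM with siMYC (-0.19, adjusted p = 0.49). Per length, MYC was the most abundant of MYC, MAX and the MXD genes with siNC, at 152 and 129.9 TPM against 41.5 and 44.1 TPM for MAX and 9.76 and 11.3 TPM for MXD4. With siMYC these levels were close together: MYC had 36.8 and 31.4 TPM, MAX 32.3 and 47.7 TPM and MXD4 39.9 and 30.6 TPM. MYCN had 0 counts in all 4 libraries and MYCL at most 5. Calls were lost for MLXIP without siNC replicate B, MNT without siMYC replicate A, siMYC replicate B, siNC replicate A or siNC replicate B, with DESeq2 and on log2(TPM + 1) with limma, and PIM1 with DESeq2 and on log2(TPM + 1) with limma. On the log2 scale, values over 1.5 times from those printed were 0.32 for MNT without siNC replicate A.

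**Figure D2:**
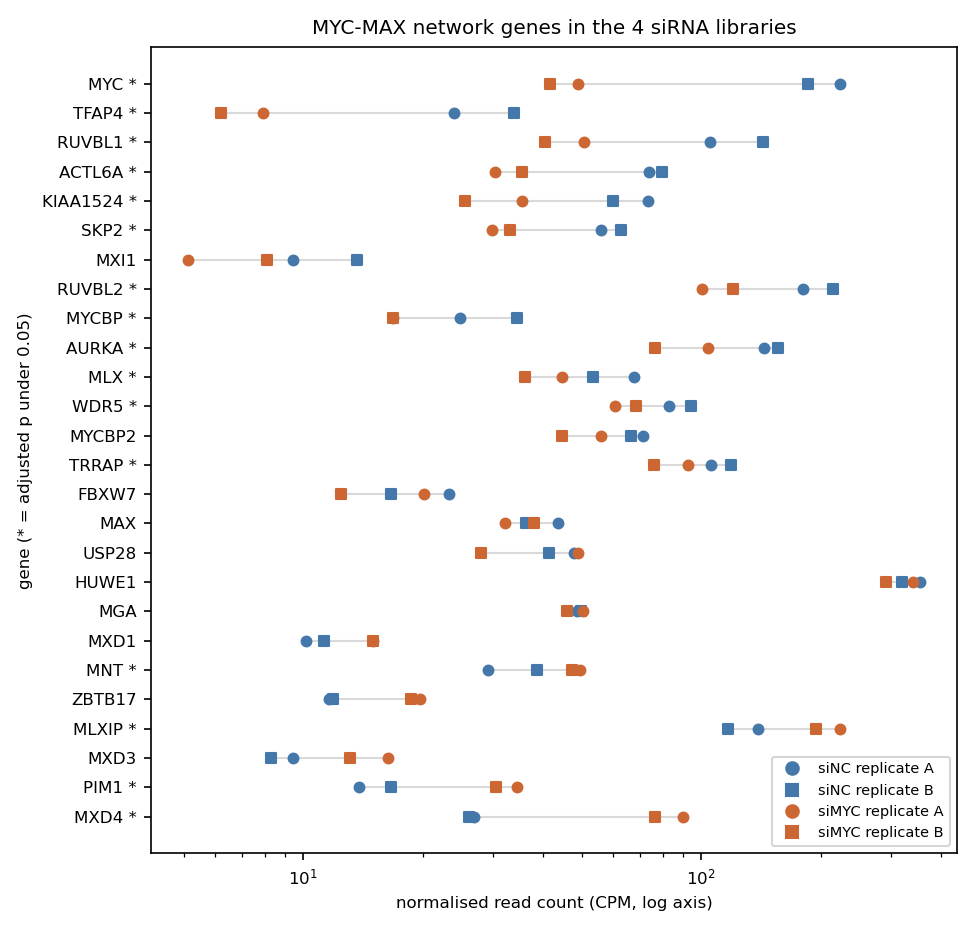
Normalised read count (CPM, log x axis) of the 26 tested MYC-MAX network genes (y axis) in each siNC (blue) and siMYC (orange) library, ordered by fold change, with a star where the adjusted p was under 0.05. MYC, TFAP4 and RUVBL1 have both siMYC points far left of the siNC points, and MXD4 has them far right.

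A broad fall was seen in the nucleolus, where ribosomal RNA is made, cut and assembled with proteins. Of the 132 tested ribosome assembly genes 114 fell (86.4%), with a median log2 fold change of -0.96 and 61 of them 2-fold or more. In the small subunit processome, the particle that makes the first cuts of the precursor, 44 of 46 tested members fell (median log2 fold change -0.97). PDCD11 (RRP5) fell from 129 and 155 CPM with siNC to 50.4 and 47.3 CPM with siMYC (log2 fold change -1.54, SE 0.15, adjusted p = 6.4e-07), WDR43 from 233 and 225 CPM with siNC to 74.1 and 85.2 CPM with siMYC (-1.53), and DCAF13 (-1.67) and CIRH1A (-1.42) likewise. The members that did not pass were UTP3 (-0.49) and RRP36 (-0.02). Of the large subunit assembly factors 47 of 52 tested members fell (median log2 fold change -0.97). BOP1, which processes the large subunit RNA, fell from 192 and 215 CPM with siNC to 42.4 and 53.5 CPM with siMYC (log2 fold change -2.10, SE 0.15, adjusted p = 2.3e-08), RSL1D1 from 364 and 393 CPM with siNC to 120.3 and 142 CPM with siMYC (-1.53) and the stalk assembly factor MRTO4 by 1.68 on the log2 scale. Among proteins of the small nucleolar particles that modify ribosomal RNA 10 of 15 tested members fell (median log2 fold change -1.0), including NOP58 from 204 and 198 CPM with siNC to 54.6 and 79.0 CPM with siMYC (-1.61).

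Genes of polymerase I, which transcribes ribosomal RNA, were called lower more often than those of polymerase III, which transcribes 5S and transfer RNA. Of 15 tested polymerase I subunits and factors 9 fell (median -0.82), among them the second largest subunit POLR1B from 82.1 and 68.2 CPM with siNC to 19.6 and 28.6 CPM with siMYC (log2 fold change -1.66, SE 0.20, adjusted p = 8.9e-06) and the initiation factor RRN3 (-1.17). Of 22 tested polymerase III genes 8 fell (median -0.31). POLR3G, the subunit isoform of proliferating and stem cells, fell furthest, from 47.9 and 35.6 CPM with siNC to 7.93 and 6.22 CPM with siMYC (log2 fold change -2.51, SE 0.28, adjusted p = 3.7e-06). Its counterpart POLR3GL, named after its value was seen, had 5.09 and 8.90 CPM with siNC and 11.2 and 11.8 CPM with siMYC, without a call (0.67, adjusted p = 0.18). GTF3A (-1.27), the 5S RNA transcription factor, POLR3E (-1.03) and POLR3K (-1.35) fell. Of the non-coding genes that carry small nucleolar RNAs in their introns 12 of 18 tested members fell (median log2 fold change -0.92). GAS5 fell from 125 and 111 CPM with siNC to 51.3 and 44.2 CPM with siMYC (-1.29), SNHG1 by 1.33, SNHG17 by 1.51 and SNHG5 by 0.93 on the log2 scale. Called members numbered 5 for polymerase III without siMYC replicate A, and 4 for polymerase III without siNC replicate B.

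Ribosomal protein genes fell almost together and by less than the assembly factors. Of 84 tested members 77 fell (91.7%), with a median log2 fold change of -0.65, and 7 fell 2-fold or more. In the large subunit 47 of 51 tested members fell (median log2 fold change -0.65). RPL12 fell from 608 and 594 CPM with siNC to 312 and 326 CPM with siMYC (log2 fold change -0.91, SE 0.10, adjusted p = 1.6e-06), RPL4 (-0.76) and RPL23 (-0.83) by similar amounts, and the summed level of the subunit's genes went from 95302 and 98397 TPM with siNC to 72163 and 69447 TPM with siMYC. The 4 that did not pass were RPL28 (-0.23), RPL36AL (-0.05), RPL26L1 (-0.34) and RPL39L (0.19), and the last 3 are paralogs of standard subunits. In the small subunit 30 of 33 tested members fell (median log2 fold change -0.62). RPS6 fell from 1407 and 1454 CPM with siNC to 802 and 829 CPM with siMYC (-0.81), and the paralog RPS27L did not pass (0.02), nor did RPS27 (-0.24) and RPS26 (-0.86). Ribosomal protein genes have many processed pseudogenes that can take a share of the reads, which makes single values less certain than the group.

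**Figure D3:**
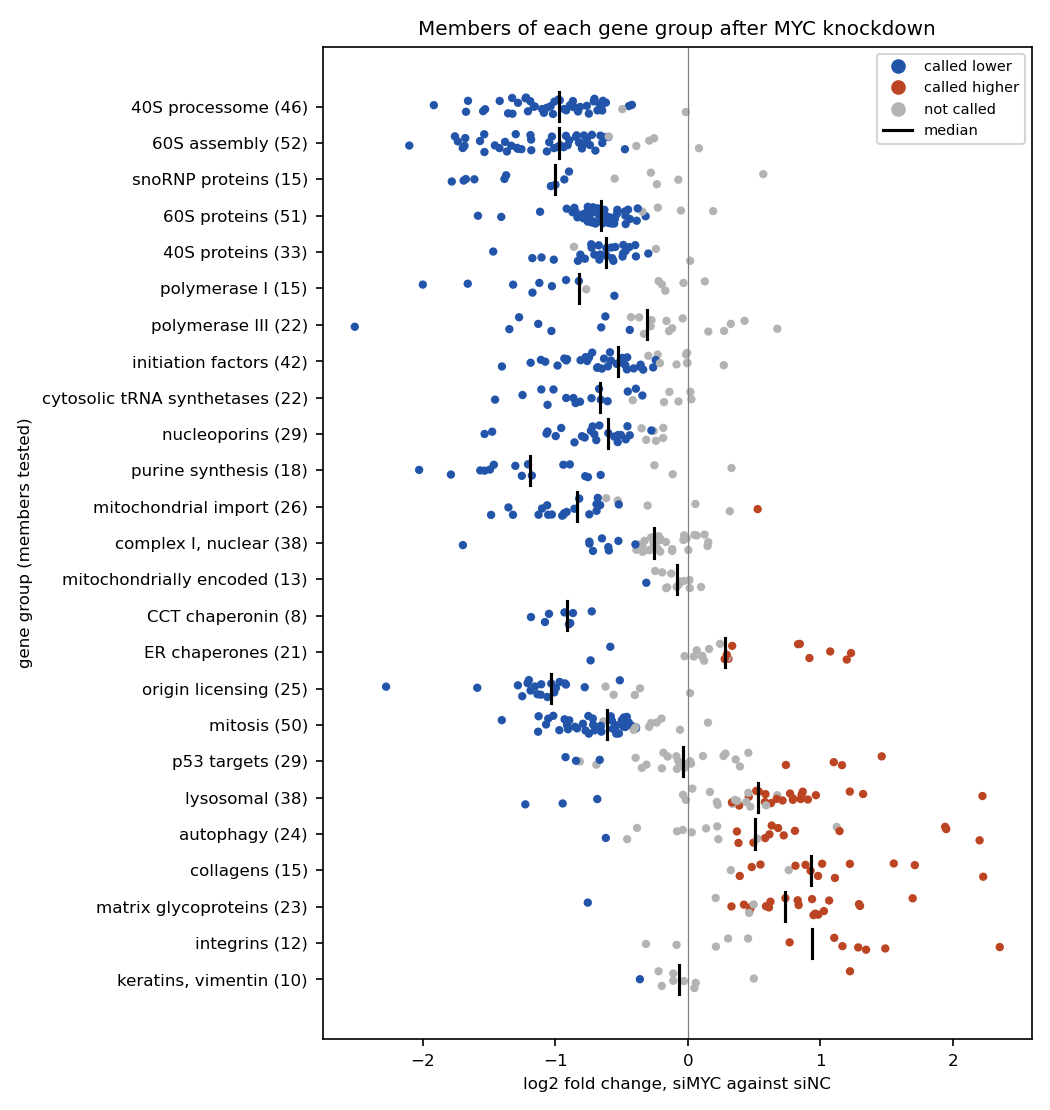
Log2 fold change, siMYC against siNC (x axis), of each tested member of 25 gene groups (y axis, members tested in parentheses). Points are blue where called lower, red where called higher and grey where not called, and the bar is the median. Ribosome, nucleotide, chaperonin and replication groups lie left of 0, matrix, integrin, lysosomal and autophagy groups right of it, and the mitochondrially encoded transcripts and the keratins near 0.

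Translation genes followed. Of the initiation factors 33 of 42 tested members fell (median log2 fold change -0.53). The helicase gene EIF4A1 fell from 1429 and 1519 CPM with siNC to 711 and 782 CPM with siMYC (log2 fold change -0.98, SE 0.09, adjusted p = 4.1e-07), the poly(A)-binding protein gene PABPC1 from 1786 and 1757 CPM with siNC to 1036 and 984 CPM with siMYC (-0.81) and EIF3J by 1.19 on the log2 scale. Of the elongation and release factors 10 of 12 tested members fell (median log2 fold change -0.85), among them the ribosome recycling factor ABCE1 (-1.32) and EEF1B2 (-0.87). Those not passing were EIF5A2 (0.08) and the elongation factor kinase EEF2K (-0.14), an inhibitor of elongation. Of the cytosolic tRNA synthetases 16 of 22 tested members fell (median log2 fold change -0.66), with FARSB from 141 and 148 CPM with siNC to 49.4 and 56.6 CPM with siMYC (-1.45) and LARS from 207 and 209 CPM with siNC to 89.5 and 85.2 CPM with siMYC (-1.25). Of the mitochondrial synthetases 4 of 17 fell (23.5%, against 19.3% of all genes, median -0.43). Leaving out a library gave counts of 2 for mitochondrial synthetases without siMYC replicate A, 1 for mitochondrial synthetases without siNC replicate A, and 18 for initiation and 2 for mitochondrial synthetases without siNC replicate B. Log2 values that differed by over 1.5 times were -0.62 for EIF3J on log2(TPM + 1) with limma.

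RNA processing and nuclear transport genes were also lower. Of hnRNP genes, which package new transcripts, 16 of 22 fell (median -0.54), with HNRNPA1 from 1436 and 1458 CPM with siNC to 836 and 926 CPM with siMYC (-0.72). Of the SR splicing factors 8 of 12 tested members fell (median log2 fold change -0.44). SRSF6 fell from 234 and 237 CPM with siNC to 83.5 and 97.7 CPM with siMYC (log2 fold change -1.39, SE 0.12, adjusted p = 3.6e-07), SRSF2 (-0.74), SRSF3 (-0.68) and SRSF1 (-0.67) fell less, and SRSF4 (0.24), SRSF5 (-0.08), SRSF11 (-0.31) and TRA2A (-0.41) did not pass. In the assembly of small nuclear RNPs 24 of 31 tested members fell (median log2 fold change -0.58), with GEMIN4 (-1.52) and GEMIN5 (-1.25) of the SMN complex. Arginine methylation of Sm proteins runs through PRMT5 and its partner WDR77. PRMT5 fell from 131 and 174 CPM with siNC to 54.6 and 52.3 CPM with siMYC (log2 fold change -1.52, SE 0.16, adjusted p = 1.2e-06) and WDR77 from 66.8 and 71.8 CPM with siNC to 17.7 and 18.0 CPM with siMYC (-1.96). PRMT1 (-0.96) and PRMT3 (-1.30) fell as well, PRMT2 rose (0.87), and CARM1 (0.13) and PRMT10 (-0.01) did not pass. Of the nucleoporins 23 of 29 tested members fell (median log2 fold change -0.60), with NUP188 from 146 and 149 CPM with siNC to 50.8 and 51.0 CPM with siMYC (-1.53). Of importins, exportins and Ran factors 20 of 29 tested members fell (median log2 fold change -0.62), with IPO4 (-1.54), RCC1 (-1.29) and CSE1L (-1.17). The count of calls was 5 for SR genes and 14 for nucleoporins without siNC replicate A, and 5 for SR genes, 11 for snRNP genes and 14 for nucleoporins without siNC replicate B. The threshold was missed by GEMIN5 and SRSF3 on log2(TPM + 1) with limma. Log2 fold changes moved by over 1.5 times to -0.44 for SRSF3 on log2(TPM + 1) with limma.

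Building blocks for nucleic acids had the lowest group median. Of the de novo purine enzymes 15 of 18 tested members fell (median log2 fold change -1.19), and 10 of them fell 2-fold or more. The enzymes that fell run from PPAT, the first committed enzyme described above, to the branch ends. PFAS fell from 157 and 191 CPM with siNC to 54.1 and 67.8 CPM with siMYC (log2 fold change -1.53, SE 0.15, adjusted p = 7.4e-07), ADSL from 95.9 and 98.5 CPM with siNC to 34.5 and 36.1 CPM with siMYC (-1.46) and IMPDH2, the committed enzyme of guanine nucleotide synthesis, from 171 and 208 CPM with siNC to 58.3 and 71.5 CPM with siMYC (-1.57). PRPS2 (-0.25), ADSSL1 (-0.11) and GUK1 (0.33) did not pass, and GUK1 was called on log2(TPM + 1) with limma, at 0.69. Of pyrimidine and deoxynucleotide enzymes 12 of 22 tested members fell (median log2 fold change -0.73), with the multifunctional enzyme CAD from 198 and 209 CPM with siNC to 95.1 and 80.9 CPM with siMYC (-1.20) and the ribonucleotide reductase subunit RRM2 from 318 and 359 CPM with siNC to 121 and 144 CPM with siMYC (-1.37). Of serine, folate and methionine enzymes 14 of 20 tested members fell (median log2 fold change -0.70). MTHFD2, the mitochondrial folate enzyme, fell from 331 and 277 CPM with siNC to 76.0 and 83.4 CPM with siMYC (log2 fold change -1.93, SE 0.13, adjusted p = 2.1e-08) and PSAT1 (-1.32) less. Called members numbered 8 for one-carbon genes without siNC replicate B. Calls were lost for CAD and PFAS on log2(TPM + 1) with limma. On the log2 scale, values over 1.5 times from those printed were -0.77 for CAD on log2(TPM + 1) with limma.

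Of 13 tested polyamine genes 6 fell (46.2%) and 2 rose (15.4%), against 19.3% and 18.1% of all genes. ODC1, the first enzyme of synthesis and a classic MYC target, fell from 328 and 315 CPM with siNC to 140.4 and 138 CPM with siMYC (log2 fold change -1.20, SE 0.11, adjusted p = 3.9e-07), and AMD1 (-0.81) and SRM fell. SAT1, which acetylates polyamines for export, rose from 193 and 119 CPM with siNC to 256 and 216 CPM with siMYC (0.62). Amino acid transporters were mixed, with 9 of 20 tested lower (45%) and 3 higher (15%, below the 18.1% of all genes). The taurine transporter SLC6A6 fell from 344 and 369 CPM with siNC to 115 and 117 CPM with siMYC (-1.62), the glutamine carrier SLC1A5 from 378 and 407 CPM with siNC to 212 and 226 CPM with siMYC (-0.85) and the cationic carrier SLC7A1 by 1.07. The lysosomal amino acid exporter SLC36A1 rose from 7.26 and 11.3 CPM with siNC to 38.2 and 34.2 CPM with siMYC (log2 fold change 1.94, SE 0.27, adjusted p = 3.5e-05). The test was not passed by AMD1 and SLC7A1 on log2(TPM + 1) with limma, and SAT1 without siMYC replicate A or siNC replicate B and with DESeq2. Log2 values that differed by over 1.5 times were 0.98 for SAT1 without siNC replicate A, and 0.28 for SAT1 without siNC replicate B.

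Central carbon metabolism changed less. Of glucose entry, glycolysis and lactate genes 12 of 24 tested members fell, 2 rose (median log2 fold change -0.40). The lactate carrier SLC16A1 fell from 152 and 128 CPM with siNC to 49.9 and 47.9 CPM with siMYC (log2 fold change -1.51, SE 0.15, adjusted p = 7.4e-07), LDHB by 0.81 and PGAM1 by 0.69 on the log2 scale, while the glucose transporter SLC2A1 rose from 202 and 232 CPM with siNC to 316 and 353 CPM with siMYC (0.62). Of 7 pentose phosphate genes 1 fell (14.3%, against 19.3% of all genes). The 2 that rose (28.6%, against 18.1% of all genes) were TALDO1 by 0.39 and PGD by 0.26. Of TCA cycle genes 12 of 28 tested members fell, 2 rose (median log2 fold change -0.36). Citrate synthase, CS, fell from 263 and 268 CPM with siNC to 177 and 179 CPM with siMYC (-0.58) and MDH2 by 0.68. ACLY, which returns citrate to acetyl-CoA in the cytosol, rose by 0.37. Leaving out a library gave counts of 6 for the TCA cycle without siNC replicate A, and 5 for the TCA cycle without siNC replicate B. The threshold was missed by CS on log2(TPM + 1) with limma, PGD without siMYC replicate B, siNC replicate A or siNC replicate B and with DESeq2, and TALDO1 without siMYC replicate B, siNC replicate A or siNC replicate B. Log2 fold changes moved by over 1.5 times to -0.34 for CS and 0.43 for PGD on log2(TPM + 1) with limma, 0.15 for PGD without siNC replicate A, and 0.15 for PGD without siMYC replicate B.

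For the mitochondrion, genes of import and folding fell, while of the transcripts of the mitochondrial genome few were called. Of import translocases 20 of 26 tested members fell, 1 rose (median log2 fold change -0.84). TOMM40, the pore of the outer membrane, fell from 292 and 285 CPM with siNC to 93.3 and 114 CPM with siMYC (log2 fold change -1.48, SE 0.12, adjusted p = 1.8e-07), the receptor TOMM70A (-1.06) fell, and the receptor TOMM20 rose (0.53). Of mitochondrial chaperones and matrix proteins 20 of 24 tested members fell (median log2 fold change -0.69). The steepest fall of this list was that of TRAP1, the mitochondrial HSP90, from 219 and 213 CPM with siNC to 35.4 and 29.9 CPM with siMYC (-2.71), and further falls were those of C1QBP from 429 and 455 CPM with siNC to 159 and 184 CPM with siMYC (-1.37) and the RNA-binding LRPPRC from 494 and 491 CPM with siNC to 215 and 261 CPM with siMYC (-1.05). Mitochondrial ribosomal proteins fell in 47 of 80 tested members (median -0.57), led by MRPL12 (-1.38) and MRPS25 (-1.57). The count of calls was 12 for the large mitochondrial subunit and 12 for the small mitochondrial subunit without siMYC replicate A, 14 for the large mitochondrial subunit and 14 for the small mitochondrial subunit without siNC replicate A, and 12 for translocases, 12 for mitochondrial chaperones, 4 for the large mitochondrial subunit and 6 for the small mitochondrial subunit without siNC replicate B. Calls were lost for TOMM20 without siNC replicate A or siNC replicate B.

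Of 73 tested nuclear genes of the respiratory chain 25 fell (34.2%) and 0 rose (median -0.30), and the share that fell differed between complexes. Complex I had 9 of 38 tested members lower (23.7%, against 19.3% of all genes, median -0.26), complexes III and IV with cytochrome c 8 of 20 (-0.32) and the ATP synthase 8 of 15 (-0.38). Within these groups single members stood out. NDUFA12 fell from 37.8 and 36.8 CPM with siNC to 12.6 and 9.95 CPM with siMYC (log2 fold change -1.70, SE 0.25, adjusted p = 5.0e-05), and ATP5G1, a gene of the rotating ring of the ATP synthase, from 103 and 137 CPM with siNC to 37.8 and 38.6 CPM with siMYC (-1.66), against -0.70 for ATP5B. Of the 13 protein-coding transcripts of the mitochondrial genome only MT-ND2 was called (-0.31), and their log2 fold changes ran from -0.31 to 0.10 (median -0.08, and 0.09 on log2(TPM + 1)). Their summed level was 67389 and 59107 TPM with siNC and 64737 and 65093 TPM with siMYC, and the groups overlapped. Of the 2 mitochondrial ribosomal RNAs MT-RNR1 fell from 2110.4 and 1666 CPM with siNC to 1255 and 1482 CPM with siMYC (log2 fold change -0.46, SE 0.11, adjusted p = 0.0027), and MT-RNR2 was not called (-0.10). The share of all counts from the mitochondrial genome was 3.87% and 3.39% with siNC and 3.38% and 3.65% with siMYC. Called members numbered 5 for complex I, 4 for complexes III and IV and 5 for the ATP synthase without siMYC replicate A, 4 for complex I and 5 for the ATP synthase without siNC replicate A, and 4 for complex I, 3 for complexes III and IV and 3 for the ATP synthase without siNC replicate B. The test was not passed by MT-ND2 without siMYC replicate A or siNC replicate A and on log2(TPM + 1) with limma, and MT-RNR1 without siMYC replicate A or siNC replicate A, with DESeq2 and on log2(TPM + 1) with limma. Log2 values that differed by over 1.5 times were -0.14 for MT-ND2 and -0.29 for MT-RNR1 on log2(TPM + 1) with limma, and -0.29 for MT-RNR1 without siNC replicate A.

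Folding genes of the cytosol fell, and those of the endoplasmic reticulum more often rose. All 8 tested subunits of the cytosolic chaperonin CCT fell, by 0.73 to 1.18 on the log2 scale. CCT7 fell from 664 and 778 CPM with siNC to 319.9 and 315 CPM with siMYC (log2 fold change -1.18, SE 0.10, adjusted p = 2.8e-07), and TCP1 (-1.08), CCT5 (-1.05) and CCT6A (-0.90) fell similarly. All 8 stayed called in each alternative, leaving out any library included. Of cytosolic HSP90 and HSP70 genes and their cofactors 14 of 19 tested members fell, 1 rose (median log2 fold change -0.74). HSP90AB1 fell from 2085 and 2015 CPM with siNC to 1071 and 1028 CPM with siMYC (-0.97) and HSPH1 by 1.32, and the small heat shock protein gene HSPB1 rose from 339 and 397 CPM with siNC to 638 and 609 CPM with siMYC (0.76). Of endoplasmic reticulum chaperones and sensors 10 of 21 tested members rose, 2 fell (median log2 fold change 0.28). PDIA4, a disulfide isomerase, rose from 243 and 222 CPM with siNC to 538 and 528 CPM with siMYC (log2 fold change 1.20, SE 0.10, adjusted p = 2.3e-07) and DNAJC3 from 60.3 and 52.8 CPM with siNC to 139 and 124 CPM with siMYC (1.23). The lectin chaperone gene CANX fell (-0.73). Of proteasome subunits 20 of 33 tested members fell (median log2 fold change -0.35), with PSMA4 from 242 and 241 CPM with siNC to 122 and 128 CPM with siMYC (-0.95). Counts of called members became 5 for the endoplasmic reticulum list and 12 for the proteasome without siMYC replicate A, 10 for the proteasome without siNC replicate A, and 3 for the endoplasmic reticulum list and 8 for the proteasome without siNC replicate B. The threshold was missed by CANX on log2(TPM + 1) with limma. Log2 fold changes moved by over 1.5 times to -0.36 for CANX on log2(TPM + 1) with limma.

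Genes of DNA replication and mitosis fell. Of the origin licensing and helicase genes 20 of 25 tested members fell (median log2 fold change -1.03), with MCM7 from 433 and 466 CPM with siNC to 168 and 204 CPM with siMYC (log2 fold change -1.28, SE 0.11, adjusted p = 3.5e-07), the initiation factor MCM10 from 95.9 and 99.1 CPM with siNC to 28.9 and 36.7 CPM with siMYC (-1.59) and the loader CDC6 (-1.21). Of polymerases and fork proteins 24 of 30 tested members fell (median log2 fold change -0.83), with TIMELESS (-0.95) and POLE3 (-1.14). Of mitotic genes 41 of 50 tested members fell (median log2 fold change -0.61). RACGAP1, needed for cytokinesis, fell from 119.9 and 129 CPM with siNC to 48.0 and 46.0 CPM with siMYC (-1.40), CCNB1 by 1.05 and PLK1 by 0.93. DNA repair genes fell in 23 of 33 cases (median -0.77), with the uracil glycosylase UNG from 131 and 159 CPM with siNC to 33.6 and 49.8 CPM with siMYC (-1.84) and MSH6 by 0.93. In bulk RNA, fewer cells in a phase and less RNA per cell cannot be told apart. Leaving out a library gave counts of 15 for DNA repair without siMYC replicate A, 14 for DNA repair without siNC replicate A, and 14 for fork proteins and 23 for mitosis without siNC replicate B. Calls were lost for RACGAP1 on log2(TPM + 1) with limma. On the log2 scale, values over 1.5 times from those printed were -0.54 for RACGAP1 on log2(TPM + 1) with limma.

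At the entry to the cycle, 8 of 12 tested cyclins, CDKs and activators fell. The phosphatase CDC25A fell from 33.4 and 32.6 CPM with siNC to 9.33 and 12.4 CPM with siMYC (log2 fold change -1.62, SE 0.26, adjusted p = 1.2e-04) and the G1 kinase CDK6 from 261 and 255 CPM with siNC to 109 and 116 CPM with siMYC (-1.20). The D cyclins differed: CCND3 rose from 68.3 and 74.2 CPM with siNC to 137 and 171 CPM with siMYC (log2 fold change 1.10, SE 0.15, adjusted p = 1.9e-05), while CCND1 was at 506 and 577 CPM with siNC and 505 and 551 CPM with siMYC, without a call (-0.04). Of the 4 tested CDK inhibitor genes CDKN1A (p21) rose from 93.0 and 111 CPM with siNC to 216 and 244 CPM with siMYC (log2 fold change 1.16, SE 0.13, adjusted p = 2.9e-06), CDKN2C (p18) from 23.2 and 21.4 CPM with siNC to 35.4 and 44.8 CPM with siMYC (0.83) and CDKN1B (p27) from 47.9 and 38.0 CPM with siNC to 62.5 and 68.4 CPM with siMYC (0.61). CDKN3, a phosphatase gene that peaks in mitosis, fell (-0.64). E2F1 fell from 43.6 and 54.6 CPM with siNC to 17.3 and 22.4 CPM with siMYC (-1.34) and the pocket protein gene RBL1 from 59.6 and 70.0 CPM with siNC to 24.7 and 29.9 CPM with siMYC (-1.27), and 9 of 13 tested E2F and retinoblastoma genes did not pass. The count of calls was 5 for cyclins and CDKs without siMYC replicate A, 5 for cyclins and CDKs without siNC replicate A, and 2 for E2F and retinoblastoma genes without siNC replicate B. The test was not passed by CDKN2C and CDKN3 without siMYC replicate B, siNC replicate A or siNC replicate B and with DESeq2, CDKN1B without siNC replicate B, with DESeq2 and on log2(TPM + 1) with limma, and RBL1 on log2(TPM + 1) with limma.

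CDKN1A is also a p53 target, and of 29 tested p53 targets 4 rose (13.8%) and 3 fell (10.3%), against 18.1% and 19.3% of all genes (median -0.04, and 0.27 on log2(TPM + 1)). MDM2, named after its values were seen, was at 144 and 166 CPM with siNC and 145 and 148 CPM with siMYC (-0.09, adjusted p = 0.62). TP53INP1 rose from 8.72 and 11.9 CPM with siNC to 27.0 and 31.1 CPM with siMYC (log2 fold change 1.46, SE 0.28, adjusted p = 5.3e-04) and TP53I3 by 0.74, while the nuclease gene AEN fell by 0.92. Among the BCL2 family, BMF, which encodes a BH3-only protein that promotes apoptosis, had 1 and 4 counts with siNC and 76 and 61 with siMYC. It rose from 0.726 and 2.37 CPM with siNC to 35.4 and 37.9 CPM with siMYC (log2 fold change 4.43, SE 0.40, adjusted p = 3.9e-07), and the fold rests on the few control counts. Another BH3-only gene, BCL2L11 (BIM), rose from 34.1 and 39.7 CPM with siNC to 73.2 and 68.4 CPM with siMYC (0.93). The anti-apoptotic MCL1 rose too, from 223 and 183 CPM with siNC to 414 and 312 CPM with siMYC (0.85), and BAK1, an effector of apoptosis, fell (-0.98). Of 14 tested family members 4 rose and 2 fell. The threshold was missed by BAK1 without siNC replicate A, with DESeq2 and on log2(TPM + 1) with limma, BCL2L11 on log2(TPM + 1) with limma, and MCL1 without siNC replicate B.

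Lysosome and autophagy genes rose. Of 77 tested 38 rose (49.4%, against 18.1% of all genes) and 5 fell. Of hydrolases and membrane proteins 21 of 38 tested members rose, 3 fell (median log2 fold change 0.53), and their summed level went from 3513 and 3573 TPM with siNC to 5812 and 5939 TPM with siMYC. PSAP, the precursor of the saposins, rose from 933 and 998 CPM with siNC to 1741 and 1760.0 CPM with siMYC (log2 fold change 0.86, SE 0.09, adjusted p = 9.3e-07), GRN (progranulin) from 121 and 146 CPM with siNC to 247 and 279 CPM with siMYC (0.97) and the membrane protein CD63 from 249 and 288 CPM with siNC to 459.8 and 523 CPM with siMYC (0.87). The cholesterol exporter NPC1 fell from 77.0 and 75.3 CPM with siNC to 33.1 and 31.7 CPM with siMYC (-1.23), and the protease CTSC fell (-0.94). Of the autophagy genes 13 of 24 tested members rose, 1 fell (median log2 fold change 0.51). GABARAPL1, a conjugated protein of the autophagosome membrane, rose from 15.3 and 13.6 CPM with siNC to 66.7 and 65.9 CPM with siMYC (log2 fold change 2.20, SE 0.21, adjusted p = 5.9e-07), WIPI1 from 6.54 and 8.31 CPM with siNC to 32.2 and 25.5 CPM with siMYC (1.95) and the initiating kinase ULK1 from 77.7 and 80.1 CPM with siNC to 168 and 182 CPM with siMYC (1.14). TFE3, a regulator of lysosomal genes that binds an E-box too, rose from 97.3 and 89.6 CPM with siNC to 162 and 135 CPM with siMYC (0.68). Of 15 proton pump genes 4 rose and 1 fell (median 0.17). Counts of called members became 2 for the proton pump without siMYC replicate A, 7 for autophagy and 2 for the proton pump without siNC replicate A, and 13 for the lysosomal list, 4 for autophagy and 0 for the proton pump without siNC replicate B. Calls were lost for NPC1 on log2(TPM + 1) with limma, and TFE3 without siNC replicate B. On the log2 scale, values over 1.5 times from those printed were -0.75 for NPC1 on log2(TPM + 1) with limma.

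Among the lists, which were chosen with earlier results of these data known, extracellular matrix genes rose most often where at least 5 members were tested. Of 55 tested 43 rose (78.2%) and 1 fell, with a median log2 fold change of 0.76. Of the collagens 13 of 15 tested members rose (median log2 fold change 0.93). COL1A1, a chain of fibrillar collagen I, rose from 23.2 and 47.5 CPM with siNC to 166 and 175 CPM with siMYC (log2 fold change 2.23, SE 0.19, adjusted p = 2.9e-07), and the collagen V chains COL5A1 and COL5A2 rose from 475 and 398 CPM with siNC to 1099 and 776 CPM with siMYC (1.11) and from 360.3 and 295 CPM with siNC to 836 and 686 CPM with siMYC (1.22). COL12A1 (0.32) and COL16A1 (0.76) did not pass. Of laminins and matrix glycoproteins 19 of 23 tested members rose, 1 fell (median log2 fold change 0.74). Fibronectin, FN1, rose from 883 and 696 CPM with siNC to 2241 and 1631 CPM with siMYC (log2 fold change 1.30, SE 0.13, adjusted p = 9.8e-07), versican, VCAN, by 1.07, THBS1 by 1.03 and TGFBI by 0.84, and fibrillin 2, FBN2, fell (-0.76). Of crosslinking enzymes, proteases and inhibitors 11 of 17 tested members rose (median log2 fold change 0.62), with TIMP2 from 283 and 297 CPM with siNC to 709.7 and 656 CPM with siMYC (1.24). The test was not passed by FBN2 without siNC replicate B and on log2(TPM + 1) with limma. Log2 values that differed by over 1.5 times were -0.43 for FBN2 without siNC replicate B.

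COL1A1 is also a fibroblast marker, so the other fibroblast markers are given beside it. PDGFRA, PDGFRB and LUM had at most 2 counts in each library, DCN had 0 in all 4, and COL3A1 had 0 and 0 counts with siNC and 9 and 3 with siMYC. ACTA2, the only other tested one, was not called (0.33). The summed level of all 7 fibroblast markers was 21.8 and 32.3 TPM with siNC and 99.7 and 103 TPM with siMYC. Of the immune markers CD68 (0.86) and CD14 (1.51) rose, both of which other cells express too, and the leukocyte marker PTPRC had 0 counts. CD14 was no longer called without siNC replicate A, siNC replicate B or siMYC replicate B, and CD68 without siNC replicate B and with DESeq2.

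Integrins, the receptors for this matrix, rose in 7 of 12 tested genes (median 0.94), 6 of them 2-fold or more. ITGB6 rose from 9.44 and 7.71 CPM with siNC to 43.8 and 43.5 CPM with siMYC (log2 fold change 2.35, SE 0.26, adjusted p = 2.7e-06) and its partner ITGAV from 529.6 and 441 CPM with siNC to 1318 and 1140.4 CPM with siMYC (log2 fold change 1.34, SE 0.11, adjusted p = 1.0e-07). The laminin receptor chain ITGA3 rose from 512 and 539 CPM with siNC to 1196 and 1163 CPM with siMYC (1.17), the fibronectin receptor chain ITGA5 from 114 and 92.0 CPM with siNC to 242 and 197 CPM with siMYC (1.10) and the hemidesmosome chain ITGB4 by 1.28. ITGB1, the common partner of ITGA3 and ITGA5, was the most abundant integrin per length, at 1122 and 1119 TPM with siNC and 1171 and 1272 TPM with siMYC. ITGB1 was not called (-0.09), nor were ITGA1 (0.45), ITGA6 (0.21), ITGAE (-0.32) and ITGB5 (0.30). ITGB5 lay near the threshold: it was called higher with other size factors, other filters, in the joint fit and with a replicate block. Of the junction genes 13 of 26 tested members rose, 1 fell (median log2 fold change 0.44). The tight junction genes CLDN1 and CLDN2 rose from 79.2 and 48.1 CPM with siNC to 229 and 193 CPM with siMYC (log2 fold change 1.76, SE 0.17, adjusted p = 7.7e-07) and from 108 and 126 CPM with siNC to 296 and 355 CPM with siMYC (1.46), and plakoglobin, JUP, from 140.2 and 148 CPM with siNC to 328 and 314 CPM with siMYC (1.15). Cingulin, CGN, fell (-1.48). Of 10 tested keratins and vimentin 1 rose and 1 fell (10% each, against 18.1% and 19.3% of all genes). VIM (0.05), KRT8 (-0.22) and KRT7 (-0.20) were not called, and KRT19 rose from 47.2 and 40.9 CPM with siNC to 112 and 91.5 CPM with siMYC (1.22). The count of calls was 7 for junction genes without siNC replicate A, and 6 for junction genes without siNC replicate B. The threshold was missed by CGN without siMYC replicate A or siNC replicate B and on log2(TPM + 1) with limma. Log2 fold changes moved by over 1.5 times to 2.22 for ITGB4 on log2(TPM + 1) with limma.

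**Figure D4:**
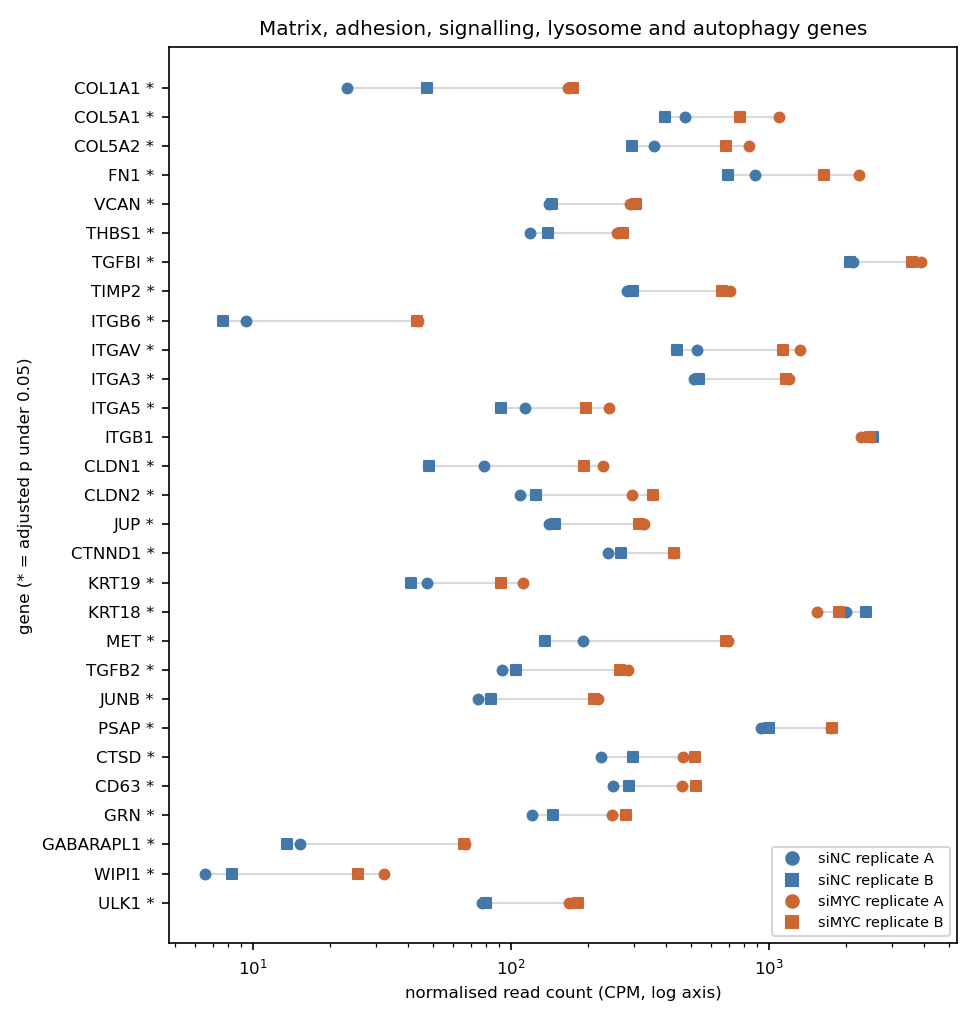
Normalised read count (CPM, log x axis) of matrix, adhesion, signalling, lysosome and autophagy genes (y axis) in each siNC (blue) and siMYC (orange) library, with a star where the adjusted p was under 0.05. The siMYC points lie right of the siNC points for each gene except ITGB1, where they lie close together, and KRT18, where they lie left.

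Among growth factor receptors MET stood out. It rose from 190.3 and 136 CPM with siNC to 694 and 686 CPM with siMYC (log2 fold change 2.09, SE 0.13, adjusted p = 6.5e-09), whereas ERBB3 fell (-1.34) and 8 of 15 receptors and ligands did not pass. Of ERK output genes, insulin substrates and binding proteins 10 of 23 tested members rose, 1 fell (median log2 fold change 0.39). JUNB rose from 74.8 and 83.6 CPM with siNC to 219 and 209.7 CPM with siMYC (1.43) and IGFBP7 from 129 and 110.3 CPM with siNC to 290.1 and 282 CPM with siMYC (1.26), and FOSL1 fell from 89.4 and 91.4 CPM with siNC to 40.6 and 37.9 CPM with siMYC (-1.20). Of TGF-beta ligands, receptors and targets 7 of 17 tested members rose (median log2 fold change 0.34). TGFB2 rose from 93.0 and 105 CPM with siNC to 285 and 264 CPM with siMYC (log2 fold change 1.47, SE 0.12, adjusted p = 1.7e-07), and TGFB1 (0.74) and the signal transducer SMAD3 (0.70) rose less. Of 15 YAP-TEAD genes 5 fell (33.3%) and 2 rose (13.3%), against 19.3% and 18.1% of all genes. Of the arrestin-domain genes, relatives of the glucose-responsive TXNIP, ARRDC3 rose from 58.1 and 47.5 CPM with siNC to 109 and 101 CPM with siMYC (1.01), ARRDC1 by 1.13, and ARRDC2 was not called (0.28). TXNIP itself had at most 3 counts in each library and was not tested. Called members numbered 4 for TGF-beta genes and 3 for YAP-TEAD genes without siNC replicate A, and 6 for the ERK and insulin list and 1 for YAP-TEAD genes without siNC replicate B. Calls were lost for ARRDC1 without siNC replicate B, with DESeq2 and on log2(TPM + 1) with limma, and ERBB3 without siMYC replicate A, siNC replicate A or siNC replicate B. On the log2 scale, values over 1.5 times from those printed were 0.64 for ARRDC1 and -2.08 for ERBB3 on log2(TPM + 1) with limma, 0.74 for ARRDC1 without siNC replicate B, -0.68 for ERBB3 without siMYC replicate A, and -2.20 for ERBB3 without siMYC replicate B.

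Lipid genes were split. Of sterol synthesis and uptake genes 8 of 24 tested members rose, 1 fell (median log2 fold change 0.29), with the feedback regulator INSIG1 from 44.3 and 48.1 CPM with siNC to 123 and 118 CPM with siMYC (log2 fold change 1.38, SE 0.15, adjusted p = 2.0e-06). Fatty acid synthase, FASN, fell from 335 and 360.1 CPM with siNC to 177 and 144 CPM with siMYC (log2 fold change -1.11, SE 0.12, adjusted p = 1.9e-06) and the elongase ELOVL6 fell (-0.88), while the desaturase FADS2 rose from 331 and 376 CPM with siNC to 552 and 588 CPM with siMYC (0.68). Of the genes of ATF4 and CHOP 9 of 19 tested members rose, 5 fell (median log2 fold change 0.33). The members that fell include the serine and asparagine enzymes PSAT1, PHGDH (-0.92) and ASNS (-0.93) with ATF4 itself (-0.47). VEGFA, an angiogenic factor, rose from 36.3 and 42.7 CPM with siNC to 78.8 and 69.7 CPM with siMYC (0.91), and VLDLR by 0.78. Counts of called members became 3 for rising genes of the ATF4 list without siMYC replicate A, 5 for sterol genes without siMYC replicate B, 2 for sterol genes and 3 for rising genes of the ATF4 list without siNC replicate A, and 2 for sterol genes and 3 for rising genes of the ATF4 list without siNC replicate B. The test was not passed by ELOVL6 and FASN on log2(TPM + 1) with limma, ASNS without siNC replicate B, ATF4 without siNC replicate A and on log2(TPM + 1) with limma, and PHGDH without siMYC replicate A or siNC replicate B, with DESeq2 and on log2(TPM + 1) with limma. Log2 values that differed by over 1.5 times were -0.29 for ATF4 on log2(TPM + 1) with limma, and -0.61 for PHGDH without siMYC replicate A.

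The remaining lists held calls in both directions, and several shares were near or below those of all genes, 18.1% higher and 19.3% lower. Of interferon-stimulated genes 3 of 19 rose (15.8%) and 1 fell (5.26%). The signalling factor STAT2 rose from 22.5 and 11.9 CPM with siNC to 47.6 and 33.0 CPM with siMYC (1.29). The peptide transporter TAP2 fell from 60.3 and 57.0 CPM with siNC to 19.1 and 15.6 CPM with siMYC (-1.73) while its partner protein gene TAPBP rose (0.77). Of antigen presentation genes 5 of 15 rose (33.3%) and 2 fell (13.3%). Of NF-kB and cytokine genes 3 of 26 rose (11.5%) and 2 fell (7.69%), the cytokine MIF among the latter (-0.92). Of the redox list 8 of 34 rose (23.5%) and 8 fell (23.5%). The list also holds genes that are not redox enzymes, and its lowest and highest fold changes belong to such genes. The transferrin receptor TFRC fell from 479 and 448 CPM with siNC to 169.7 and 189.7 CPM with siMYC (log2 fold change -1.37, SE 0.11, adjusted p = 1.0e-07). The exporter ABCC3 rose from 337 and 401 CPM with siNC to 796 and 821 CPM with siMYC (1.13). A549 cells are known for high aldo-keto reductase levels. AKR1C3 rose by 0.76, and the near-identical AKR1C1 and AKR1C2, summed, went from 2362 and 2679 CPM to 3021 and 3481 CPM (log2 fold change 0.37, adjusted p = 0.0026). Of HIF targets 6 of 18 rose (33.3%) and 3 fell (16.7%). CA9, a carbonic anhydrase, fell from 12.3 and 10.1 CPM with siNC to 1.40 and 1.24 CPM with siMYC (log2 fold change -2.99, SE 0.54, adjusted p = 3.4e-04). The threshold was missed by STAT2 without siNC replicate B and on log2(TPM + 1) with limma, and TAP2 on log2(TPM + 1) with limma. Log2 fold changes moved by over 1.5 times to -0.13 for TAP2 on log2(TPM + 1) with limma, and 0.85 for STAT2 without siNC replicate B.

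Of lung lineage and secretory genes 7 of 20 tested rose (median 0.53). SOX4 rose from 145 and 128 CPM with siNC to 414 and 384 CPM with siMYC (log2 fold change 1.55, SE 0.11, adjusted p = 4.7e-08), the basal cell factor TP63 from 13.1 and 10.1 CPM with siNC to 50.8 and 35.5 CPM with siMYC (1.93) and ELF3 from 102 and 138 CPM with siNC to 171 and 255 CPM with siMYC (0.80). Of chromatin genes 13 of 31 fell (41.9%) and 4 rose (12.9%), against 19.3% and 18.1% of all genes. The histone chaperone SET fell from 739 and 691 CPM with siNC to 426 and 394 CPM with siMYC (-0.80), the acetyltransferase KAT2A from 97.3 and 107 CPM with siNC to 46.6 and 46.7 CPM with siMYC (-1.13), and JARID2, a Polycomb cofactor, rose from 37.8 and 40.9 CPM with siNC to 88.1 and 72.2 CPM with siMYC (1.03). H3F3A, which encodes histone H3.3, shares reads with a pseudogene. Their sum went from 189 and 193 CPM with siNC to 464 and 436 CPM with siMYC (log2 fold change 1.24, adjusted p = 2.2e-07). The count of calls was 4 for the lung list without siNC replicate A, and 4 for the lung list without siNC replicate B. Calls were lost for ELF3 without siNC replicate A and with DESeq2. On the log2 scale, values over 1.5 times from those printed were 0.49 for ELF3 without siMYC replicate B.

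Several of the strongest single changes lie outside these lists. The first 9 below have an average log2 CPM of 5 or more. The carboxypeptidase CPD fell from 227 and 217 CPM with siNC to 46.2 and 63.5 CPM with siMYC (log2 fold change -2.04, SE 0.15, adjusted p = 3.4e-08), the methyl-CpG binding protein gene MBD2 from 64.7 and 59.9 CPM with siNC to 17.3 and 13.7 CPM with siMYC (-1.98) and the polarity gene LIN7C from 75.6 and 64.1 CPM with siNC to 16.3 and 21.8 CPM with siMYC (-1.89). The bradykinin receptor BDKRB2 rose from 23.2 and 12.5 CPM with siNC to 136 and 97.7 CPM with siMYC (log2 fold change 2.76, SE 0.24, adjusted p = 2.6e-07), the integrin chain ITGA11 from 10.2 and 11.9 CPM with siNC to 70.4 and 50.4 CPM with siMYC (2.46), the focal adhesion gene TGFB1I1 from 18.2 and 21.4 CPM with siNC to 86.7 and 82.1 CPM with siMYC (2.08) and LBH from 166 and 217 CPM with siNC to 672 and 655 CPM with siMYC (1.79). TP53I11 rose by 1.93 and MIR22HG, the host transcript of a microRNA, by 1.74. At lower expression the antisense transcript VPS9D1-AS1 fell from 15.3 and 37.4 CPM with siNC to 2.80 and 1.24 CPM with siMYC (-3.63), whose reads cannot be told apart from those of VPS9D1 because no strand setting is stated. The dihydrouridine synthase DUS2 fell from 24.7 and 19.0 CPM with siNC to 3.73 and 3.11 CPM with siMYC (-2.62). Log2 values that differed by over 1.5 times were 1.63 for ITGA11 on log2(TPM + 1) with limma.

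MGA pairs with MAX on the same palindrome, so the response to siMYC was set against that to MGA overexpression, with the difference between the responses tested in a joint fit of all 8 libraries. The experiments share no libraries. Of 11218 genes tested 18.5% differed between the responses, 10.3% with a lower and 8.22% with a higher response to siMYC. Ribosome genes differed often. The response to siMYC was called lower in 31 of 46 processome genes (median log2 fold change with MGA -0.06), 39 of 52 large subunit assembly genes (-0.01) and 37 of 51 and 28 of 33 ribosomal proteins of the large and small subunit (-0.12 and -0.01). BOP1 had a log2 fold change of 0.17 with MGA and a difference of -2.27 (adjusted p = 3.5e-08). In the matrix, the siMYC response was called higher in 12 of 15 collagens (median with MGA -0.10), and in 15 of 38 lysosomal genes (0.03). FN1 had a log2 fold change of -0.12 with MGA and a difference of 1.43 (adjusted p = 1.9e-06).

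Of mitosis genes 2 of 50 had a lower and 4 a higher siMYC response, against 10.3% and 8.22% of all genes, with medians of -0.61 with siMYC and -0.70 with MGA. Of licensing genes 5 of 25 had a lower response to siMYC (against 10.3% of all genes, with medians of -1.03 and -0.67). A call that is missed does not show that responses are equal. Of p53 targets 12 of 29 had a lower response to siMYC and 1 a higher one, with a median of 0.60 with MGA against -0.04 with siMYC. Of transcripts of the mitochondrial genome 7 of 13 had a higher response to siMYC, and their median with MGA was -0.46. Autophagy genes had similar medians, 0.51 with siMYC and 0.53 with MGA. MGA against empty vector called 8.96% of the genes in this fit, and MYC itself rose by 0.43 with MGA (adjusted p = 0.025). The overexpression libraries had 820428 to 1176890 counts, fewer than any siRNA library. With MGA, 1 gene alone held 9.54% and 9.68% of the counts. What these limits do to the number of MGA calls was not tested. The joint fit shares its spread between experiments of unequal scatter, with a common biological coefficient of variation of 0.0725 in the siRNA and 0.0343 in the overexpression libraries alone.

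**Figure D5:**
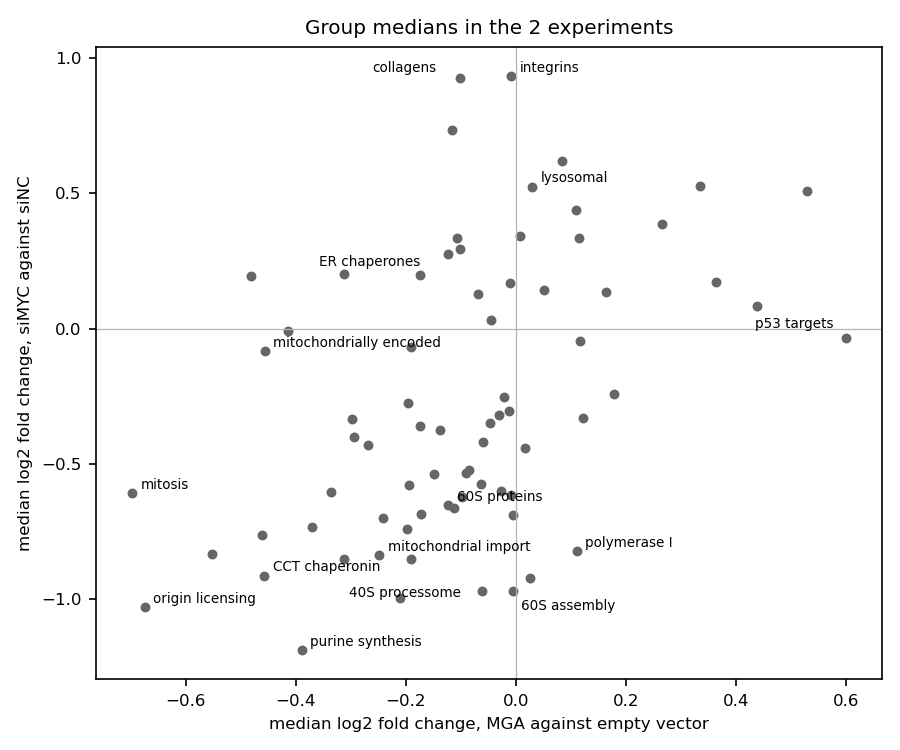
Median log2 fold change of each gene group with at least 5 tested members, for MGA against empty vector (x axis) and siMYC against siNC (y axis). Ribosome groups lie low on the y axis near 0 on the x axis, mitosis and origin licensing lie low on both, collagens and integrins lie high near 0 on the x axis, and p53 targets lie right near 0 on the y axis.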

How the data were processed

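RNA was isolated with a column kit, poly(A) RNA was selected and libraries were made with an NEB kit, per the labels' protocols. Reads were processed with STAR and RSEM on hg19, per the submitters' processing notes, while tool versions, annotation and strand setting are not stated there. For each library the authors deposited an expected count per gene, which RSEM estimates by dividing reads among the genes they fit, with TPM, FPKM and the gene's effective length, per the file headers. TPM and FPKM are scaled by the authors to length and library, and FPKM was not used.

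Expected counts of 57820 genes were rounded to whole numbers and fitted in edgeR 4.0.16 (R 4.3.3, limma 3.58.1) over the 4 siRNA libraries alone, because the overexpression libraries come from another experiment. Genes passed filterByExpr (minimum count 10, minimum total 15), TMM scaled the libraries, and the quasi-likelihood F test with Benjamini-Hochberg adjustment over all 11045 tested genes called those under 0.05, with 2 residual degrees of freedom among samples. The standard error is the fold change divided by the square root of F. The difference from the MGA response is an interaction term in a fit of all 8 libraries. With 2 libraries against 2, exact permutation p-values stop at 0.333, so none is given. The fitting script was tested on simulated data. Replicates differed by more than counting error (chi-square per degree of freedom 1.80 and 1.84), so no library is a copy of another.

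The gene groups are 46 lists with 79 roles, and the members and lists were chosen with earlier results of these data known. Named genes come from the network, the largest changes (15 in each direction at an average log2 CPM of 5 or more, 5 at 2 to 5) and up to 4 called members per role and direction with the smallest p. All members of some small roles were eligible too. The text shows a part of them, picked partly because their calls held. Replicate letters were not taken to pair the libraries: there are only 2 pairs, with a correlation of deviations of 0.121. Alternatives were other size factors, filters, the joint fit, DESeq2 1.42.0, limma on log2 TPM values, a replicate block, unrounded counts and leaving out each library. Sums over copies, TPM medians by group and promoters of genes with 1 listed start were added after seeing the data. Promoters came from RefSeq (GRCh38.p14), and 8898 of the 10445 tested genes that the RefSeq gene table lists outside chromosome 8 matched.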

Additional observations from a re-analysis of the deposited data

How the results depend on the processing

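Against 4135 calls (2132 lower, 2003 higher), DESeq2 gave 1958 (1100 lower, 858 higher), all of them among the 4135. Limma gave 1846 on log2(TPM + 1) (732 lower, 1114 higher), of which 1727 were among the 4135, and 1784 on log2(TPM + 0.1) (719 lower, 1065 higher), of which 1678 were. The cause was not tested. Leaving out 1 library gave 1917 to 3765 calls, 1124 to 2011 of them lower and 793 to 1754 higher, lowest without siNC replicate B and highest without siMYC replicate B. These fits have fewer samples, and the lone library of a group is assumed to vary like the others. With RLE size factors 4172 genes were called, with upper-quartile factors 4232 (54.6% higher), with library sizes alone 4252 (53.8% higher), with no count filter 4295, with a minimum count of 30 3985, in the joint fit 4370 and with unrounded counts 4143. With the letter as a replicate block, 4722 genes were called (2398 lower, 2324 higher), and this pairing rests on the letters alone. No gene called in both the reported fit and an alternative had opposite directions. MXD1 was called on log2(TPM + 1) only, at 1.18. Some named genes without a call were called in the same direction both in the joint fit and with the replicate block. These were ITGB5, KRT7, KRT8, RPL28, RPS27, TRA2A and UTP3. RPS26 was called with no count filter and with the block, and SRSF11 with the block. The count of called members moved by over 1.5 times in 23 groups with DESeq2 and in 37 on log2(TPM + 1). In promoters of genes with 1 listed start, chosen after seeing the data, CACGTG was in 14.7% of falling, 9.03% of rising and 10.3% of uncalled genes. Totals of 1398805 to 2129006 counts limit what is shown for genes of few reads, as the lowest values printed show.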
